A study of Mus musculus with 24 samples.

Results

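The genes described here are the chemokines and chemokine receptors of an immune gene panel, other than the few CXC genes named below. They were chosen by symbol: every gene with values whose name begins with Ccl, Ccr, Cxcl, Cxcr, Cx3c, Xcl or Xcr followed by a number or letter, without Cxcl1, Cxcl2, Cxcl3, Cxcl9, Cxcl10, Cxcl12, Cxcr2 and Cxcr4. The rule took 37 of 750 genes and used no measured value. They are 21 CC ligands, 4 CC receptors, 6 CXC ligands, 3 CXC receptors, the CX3C ligand and its receptor, and 1 XC ligand. The panel had been run on total RNA from 24 mouse mammary tumours described as mTDT in BALB/c hosts, which the study's title presents as transplants derived from mammary tumours. Each tumour carried 1 of 3 immune infiltrate labels, with 13 inflamed, 4 excluded and 7 desert tumours; the labels give no strain of the tumour itself, no treatment, no time and no age. How the class was assigned is not given in the sources used here, so it cannot be told whether the same values entered it. A code joins each sample to a tumour of origin through a letter (A, C, F, G, H or L) followed either by 0 (5 samples) or by F2 (19 samples), whose meaning the labels do not explain. Code numbers recur within a letter: inflamed replicates 3 and 4 have the same number, as have excluded replicates 2 and 3, and desert replicates 3, 4 and 6.

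Chemokines are small secreted proteins that direct the migration of leukocytes through G protein-coupled receptors. Ccl2, Ccl7 and Ccl12 draw monocytes through Ccr2, Ccl3, Ccl4 and Ccl5 draw T cells and macrophages, and Ccl19 and Ccl21a hold T cells and dendritic cells in lymph nodes through Ccr7. A tumour is usually called inflamed when lymphocytes lie among its cells, excluded when they are kept to its margin, and desert when they are scarce. In mammary tumours, monocyte attractants are known from tumour cells, stroma and macrophages alike.

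The promoters of 4 members are shown because the results turn on them: the ligand and receptor that varied together most closely (Ccl12 and Ccr2), a ligand that was lower in origin A (Ccl9), and the gene with the widest range (Ccl21a). They are RefSeq sequences of GRCm38.p6, from 250 bases before to 50 bases after the start that the sequence table uses for the gene, 5′ to 3′ on the gene's strand, with TATAAA and the NF-kappaB consensus, on either strand, in capitals. The Ccr2 window surrounds a start inside the gene, since it begins after the outermost start in the annotation. The window of Ccl12 lies at chr11:82101595-82101894 on the plus strand, that of Ccl9 at chr11:83578587-83578886 on the minus strand, that of Ccr2 at chr9:124101933-124102232 on the plus strand and that of Ccl21a at chr4:42773942-42774241 on the minus strand.
Ccl12: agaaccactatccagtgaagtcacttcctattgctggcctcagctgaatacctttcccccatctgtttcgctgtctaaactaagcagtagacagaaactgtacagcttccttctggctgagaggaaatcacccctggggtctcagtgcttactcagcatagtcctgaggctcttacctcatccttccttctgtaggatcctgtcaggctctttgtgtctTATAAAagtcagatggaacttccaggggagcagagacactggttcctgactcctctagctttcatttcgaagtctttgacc
Ccl9: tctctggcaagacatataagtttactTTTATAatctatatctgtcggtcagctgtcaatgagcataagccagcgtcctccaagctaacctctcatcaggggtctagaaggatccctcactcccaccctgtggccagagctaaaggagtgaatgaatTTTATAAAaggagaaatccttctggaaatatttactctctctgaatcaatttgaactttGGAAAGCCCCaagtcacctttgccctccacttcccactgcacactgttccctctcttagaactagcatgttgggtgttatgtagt
Ccr2: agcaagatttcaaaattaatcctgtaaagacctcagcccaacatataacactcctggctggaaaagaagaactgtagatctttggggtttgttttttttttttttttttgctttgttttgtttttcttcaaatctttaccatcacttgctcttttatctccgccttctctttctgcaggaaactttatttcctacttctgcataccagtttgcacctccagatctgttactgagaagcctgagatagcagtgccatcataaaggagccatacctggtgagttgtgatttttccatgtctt
Ccl21a: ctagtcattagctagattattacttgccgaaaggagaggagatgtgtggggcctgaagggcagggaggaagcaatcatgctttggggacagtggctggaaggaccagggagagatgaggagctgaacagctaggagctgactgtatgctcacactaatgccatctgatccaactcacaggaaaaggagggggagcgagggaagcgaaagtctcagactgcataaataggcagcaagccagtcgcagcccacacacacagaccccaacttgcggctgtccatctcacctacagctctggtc
The Ccl12 promoter held TATAAA at base -31, and the Ccl9 promoter held it at bases -224, -94 and -92 and the NF-kappaB consensus at base -35. Neither motif was found in the windows of Ccr2 and Ccl21a. Promoters were on hand for 25 of the 37 genes, 28 promoters in all. TATAAA was found in 7 of these 28 promoters and in 13.6% of all 32841 promoters. The NF-kappaB consensus was found in 3 of the 28 (Ccl20, Ccl27a and Ccl9) against 4.51% of all promoters. Of the other motifs searched on both strands, 1 was TTTC and TTTC with NN between them, the core of the interferon-stimulated response element. It was found in 2 of the 28 (Ccl19 and Cxcl14) against 3.44%. GAGGAAGT, a PU.1 core, was found in 1 of the 28 (Cxcr3) against 3.2%.

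Depth differed widely between the libraries, with 5262 to 1110314 recovered counts. The results below rest on the 16 libraries of at least 100000 counts, called deep, of which 8 were inflamed, 3 excluded and 5 desert. All levels are the deposited log2 values. A level is called above the detection limit where it exceeded the mean plus 2 SD of the 75 dimmest genes of its library; these limits lay at 1.67 to 4.32 in deep libraries and at 5.14 to 8.40 in the 8 shallow ones. A gene is called expressed where it was above the limit in at least 8 of 16 deep libraries. By letter, the deep inflamed libraries come from origins A, G, H and L. The excluded ones come from A and C, and the desert ones from C, F and G. Libraries of a class that share an origin were fitted as separate samples. A p-value of a fit therefore reflects the spread between libraries within the groups compared. In the class fits that spread mixes libraries of different origins, of the same origin and of the same code. Part of it may be technical. The 8 inflamed libraries come from 7 codes and the 3 excluded ones from 2, so each n below counts libraries, and an excluded SD covers fewer codes than libraries. The label mammary tumour was checked against epithelial markers: Epcam was above its limit in 7 of 16 deep libraries, and Cdh1 and Lamb3 in 3 each. In whole tissue, fewer cells of a type and less RNA per cell cannot be told apart.

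Of the 37 members, 24 were expressed (64.9%, against 75.7% of all genes). Above the limit in every deep library were 14 members, among them the monocyte attractants Ccl2, Ccl7, Ccl8 and Ccl12, the eosinophil attractant Ccl11, Ccl5, Ccl6, Ccl9, Cxcl14, Cxcl16, the ligand Cx3cl1 with its receptor Cx3cr1, and the receptor Ccr2. Above the limit in none were 9: Ccl1, the Ccr7 ligand Ccl19, the Ccr6 ligand Ccl20, Ccl26, Ccl28, Ccr4, Ccr9, Cxcl15 and Cxcr5, the receptor of B cell follicles. Apart from Ccl1, these are also among the 75 genes that set the limit. Between these were Ccl24, Cxcl5, Cxcl11 and Cxcr6 in 14 libraries, Ccl3 in 13, Ccl25 in 12, Ccl21a, Ccl22 and Cxcr3 in 9, Ccl4 in 8, Xcl1 in 7, the B cell attractant Cxcl13 in 6, Ccl17 in 4 and Ccl27a in 2. With a limit of 3 SD, 18 members stayed expressed. Ligands and receptors were detected alike, with 19 of 29 and 5 of 8 expressed.

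**Figure D1:**
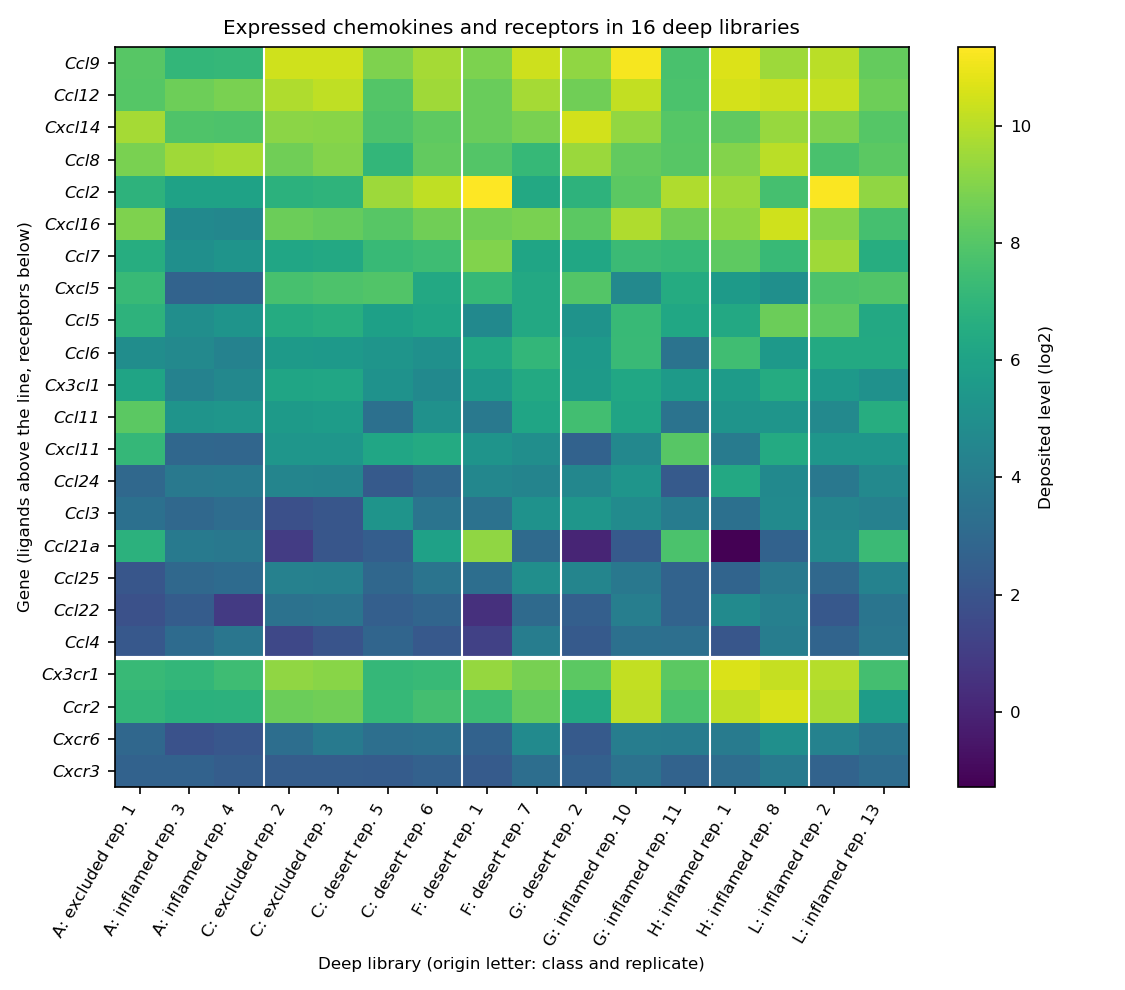
Deposited log2 level (colour) of 23 expressed members (rows, ligands above the line and receptors below) in 16 deep libraries (columns, by origin letter, class and replicate). Ccl21a has the widest spread along its row, and inflamed replicates 3 and 4 are dark for Cxcl16 and Cxcl5, at 4.69 and 4.54 and at 2.75 and 2.79.

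The Ccr2 ligands were present in all 3 classes, with wide and overlapping ranges in inflamed and desert tumours. Ccl2, the main monocyte attractant, ranged over 5.99 to 11.27 with a median of 8.71 in inflamed tumours, against 6.90, 6.81 and 6.93 in excluded tumours and 11.34, 6.90, 9.51, 10.12 and 6.35 in desert tumours. The highest level of Ccl2 was thus in desert replicate 1 and its lowest in the inflamed pair of origin A. The 3 excluded tumours were close together, but replicates 2 and 3 of them share a code number. Ccl7, which also binds Ccr2, ranged over 5.01 to 9.54 with a median of 7.19 in inflamed tumours, against 6.56, 6.17 and 6.36 in excluded tumours and 8.97, 6.22, 7.21, 7.42 and 6.13 in desert tumours. Like Ccl2, Ccl7 was lowest in the inflamed pair of origin A; its highest levels were in inflamed replicate 2 and desert replicate 1. Over the 14 codes with a deep library, Ccl2 and Ccl7 correlated at r = 0.87. Ccl12, another Ccr2 ligand known from mouse, ranged over 7.75 to 10.54 with a median of 9.48 in inflamed tumours, against 8.01, 9.86 and 10.11 in excluded tumours and 8.48, 8.61, 7.96, 9.52 and 9.66 in desert tumours. The 3 classes overlapped for all of these ligands.

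Ccl5, an attractant made by T cells, NK cells and macrophages, was lowest in desert tumours by mean. It ranged over 4.96 to 8.51 with a median of 6.35 in inflamed tumours, against 6.88, 6.46 and 6.62 in excluded tumours and 4.70, 5.19, 5.90, 6.16 and 6.32 in desert tumours. All 3 excluded tumours lay above all 5 desert tumours, although excluded replicates 2 and 3 share a code number. Such a separation held for 6% of all genes. The inflamed tumours reached both above and below these groups: inflamed replicates 8 and 2 had 8.51 and 8.20, and the pair of origin A had 4.96 and 5.27. The means were 6.63 ± 1.27 in inflamed tumours (SD, n = 8), 6.66 ± 0.21 in excluded tumours (SD, n = 3) and 5.65 ± 0.69 in desert tumours (SD, n = 5). The fitted difference of inflamed minus desert tumours was 0.98 with an SE of 0.55 and an adjusted p of 0.573 (limma), so Ccl5 did not pass the test.

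Ccl3 and Ccl4, inflammatory attractants of macrophages and T cells, were at lower levels in excluded tumours than in the other classes by mean, and did not pass the test over all genes. Ccl3 ranged over 3.0 to 4.79 with a median of 4.15 in inflamed tumours, against 3.40, 1.79 and 2.08 in excluded tumours and 3.50, 5.37, 5.23, 3.56 and 5.13 in desert tumours. Every excluded tumour was below every desert tumour, as for 1.87% of all genes. The fitted Ccl3 differences were 1.56 for inflamed minus excluded tumours (SE 0.54, adjusted p 0.526, limma) and -2.13 for excluded minus desert tumours (SE 0.58, adjusted p 0.441, limma). Excluded replicates 2 and 3, the lowest for Ccl3, share a code number. Ccl4 averaged 3.27 ± 0.61 in inflamed tumours (SD, n = 8), 1.88 ± 0.40 in excluded tumours (SD, n = 3) and 2.52 ± 1.06 in desert tumours (SD, n = 5), and was above the limit in 6, 0 and 2 of them.

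Ccr2, the receptor that brings monocytes into tissue, spanned its whole range within the inflamed class. It ranged over 5.71 to 10.57 with a median of 8.74 in inflamed tumours, against 7.07, 8.52 and 8.61 in excluded tumours and 7.39, 6.36, 7.18, 7.58 and 8.36 in desert tumours. Inflamed replicate 13 was the lowest of all 16 libraries and inflamed replicate 8 the highest, so the class enclosed both others. The difference of inflamed minus desert tumours was 1.08 (SE 0.77, adjusted p 0.608, limma). Cx3cr1, a receptor of patrolling monocytes and macrophages, ran alongside it, at 7.09 to 10.62 in inflamed tumours, 7.20 to 9.26 in excluded tumours and 7.12 to 9.32 in desert tumours. Across the 14 codes Ccr2 correlated with Cx3cr1 at r = 0.86, and the mean of 7 expressed macrophage and monocyte markers correlated at r = 0.75 with Ccr2 and at 0.88 with Cx3cr1. These correlations are descriptions, since all genes of a tumour share its library, its scaling factor and its depth.

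The eosinophil and macrophage ligands were likewise spread within classes. Ccl11 ranged over 3.53 to 6.56 with a median of 5.27 in inflamed tumours, against 8.17, 5.61 and 5.71 in excluded tumours and 3.84, 7.53, 3.40, 5.11 and 6.16 in desert tumours. Excluded replicate 1 and desert replicate 2 were its highest tumours. Ccl24, which shares the receptor Ccr3 with Ccl11, ranged over 2.31 to 6.32 in inflamed, 2.98 to 4.45 in excluded and 2.31 to 4.58 in desert tumours. Ccl6 and Ccl9, Ccr1 ligands known from mouse, ranged over 3.53 to 7.48 and 7.10 to 11.15 in inflamed tumours, 4.89 to 5.61 and 8.04 to 10.42 in excluded tumours, and 5.05 to 7.06 and 8.85 to 10.38 in desert tumours. Both were thus at their extremes in inflamed tumours. Ccl8, a monocyte and T cell attractant, averaged 8.81 ± 0.87 in inflamed tumours (SD, n = 8), 8.80 ± 0.18 in excluded tumours (SD, n = 3) and 7.99 ± 0.96 in desert tumours (SD, n = 5); inflamed minus desert was 0.82 (SE 0.47, adjusted p 0.578, limma).

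Ligands of T cells and their receptors were near the detection limit in many tumours. Ccl22, a Ccr4 ligand made by dendritic cells, ranged over 0.87 to 4.78 in inflamed, 1.87 to 3.56 in excluded and 0.46 to 3.07 in desert tumours, and was above the limit in 5, 2 and 2 of them. Ccl25, the Ccr9 ligand of thymus and gut, ranged over 2.72 to 4.31 in inflamed, 2.08 to 4.28 in excluded and 2.95 to 4.95 in desert tumours. Cxcr3, the receptor of interferon-induced chemokines on T cells, ranged over 2.45 to 3.90 in inflamed, 2.44 to 2.71 in excluded and 2.32 to 3.30 in desert tumours. Its spread was small beside that of its ligand Cxcl11, at 2.87 to 8.08 in inflamed, 5.35 to 7.14 in excluded and 2.70 to 6.44 in desert tumours. Cxcl11 was highest in inflamed replicate 11 and lowest in desert replicate 2. Xcl1, which attracts cross-presenting dendritic cells, averaged 3.05 ± 0.90 in inflamed tumours (SD, n = 8), 2.75 ± 1.16 in excluded tumours (SD, n = 3) and 2.05 ± 1.36 in desert tumours (SD, n = 5), and was above the limit in 4, 2 and 1 of them. Cx3cl1, the membrane-bound ligand of Cx3cr1, averaged 5.44 ± 0.73 in inflamed, 6.15 ± 0.05 in excluded and 5.47 ± 0.62 in desert tumours (SD, n = 8, 3 and 5). Cxcl14, a chemokine of epithelium, ranged over 7.81 in inflamed replicate 4 to 10.46 in desert replicate 2. None of these members passed the test between classes (limma).

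Ccl21a, a lymph node chemokine that binds Ccr7, stood out by single tumours. Its range over the deep libraries was 10.54 on the log2 scale, the second widest of 750 genes; the median range was 4.02 over the members and 3.24 over all genes. In inflamed tumours Ccl21a was at -1.28, 4.66, 3.88, 3.79, 2.71, 2.28, 7.78 and 7.34 in replicates 1, 2, 3, 4, 8, 10, 11 and 13, against 6.81, 0.97 and 2.08 in excluded tumours and 9.26, 0.03, 2.48, 5.96 and 3.07 in desert tumours. Each class therefore held at least 1 tumour with a clear signal and at least 1 below its limit. In recovered counts, desert replicate 1 had 3567, excluded replicate 1 had 583, inflamed replicate 11 had 267, and inflamed replicate 1 had 2. By origin letter in the deep libraries, letter A held 6.81, 3.88 and 3.79 and letter L held 4.66 and 7.34, all above the limit. Other letters held both high and low levels: letter F held 9.26 and 3.07, letter G held 0.03, 2.28 and 7.78, and letter C held 0.97, 2.08, 5.96 and 2.48. Both deep tumours of letter H were below their limits. Among the shallow libraries, inflamed replicate 9 alone was above its limit for Ccl21a, at 8.87 from 38 counts against a limit of 7.31. This library is also of letter H, so that letter too held both.

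Other lymph node genes were examined beside Ccl21a. Ccl19, the other Ccr7 ligand, was below its limit in every deep library, and Cxcl13 was at 1.98 in desert replicate 1 (limit not reached) while Ccl21a was at 9.26 there. Of the B cell genes, Cd79b was above its limit in 5 of 16 deep libraries, Ms4a1 in 1, and Cd79a and Blk in 0. The mouse genome holds near-identical copies of Ccl21a and Ccl27a, and the files do not say which copies a probe reads.

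By the measure used for a peak in 1 tumour, a gap of at least 2 on the log2 scale to the next tumour of another code, 0 of the 37 members had one, against 3.6% of all genes. The gap of Ccl21a was 1.48, from 9.26 in desert replicate 1 to 7.78 in inflamed replicate 11. Ccl27a, a skin chemokine, had a gap of 1.41 and was above the limit in inflamed replicates 3 and 4 alone, at 3.84 and 4.22. Ccl24, an eosinophil attractant, had a gap of 1.02, with 6.32 in inflamed replicate 1. With a gap of 1 these 3 members had a peak, as had 13.2% of all genes.

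**Figure D2:**
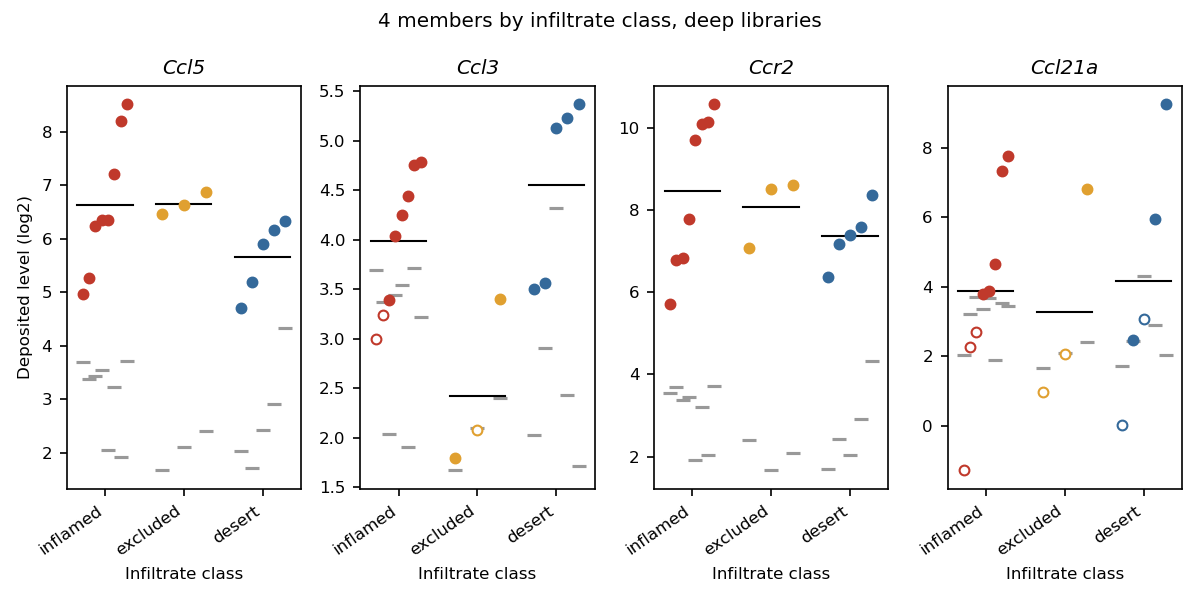
Deposited log2 level of Ccl5, Ccl3, Ccr2 and Ccl21a in the deep libraries by infiltrate class (8 inflamed, 3 excluded, 5 desert); points are tumours, open where below the detection limit, grey ticks are each library's limit and black lines are class means. Ccl21a runs from -1.28 to 9.26, and the 3 excluded tumours (2 codes) are above the desert ones for Ccl5 and below them for Ccl3.

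No member passed the test between infiltrate classes. For inflamed against desert tumours, 0 of 37 members passed at an adjusted p of 0.05 (limma), where 2 of 750 genes did (0.267%). At an unadjusted p of 0.05, 2 members and 10.7% of all genes passed. Those 2 were Ccl17, a Ccr4 ligand that attracts type 2 helper T cells, with a difference of 1.83 (adjusted p 0.32, limma), and Cxcl5, a neutrophil attractant, with a difference of -1.78 (adjusted p 0.441, limma). Ccl17 was above its limit in 2 inflamed, 2 excluded and 0 desert tumours, and was below it in all other deep libraries. Over the members the median difference was 0.35 and 24 (64.9%) lay above 0, beside 0.12 and 58.5% over all genes.

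Cxcl5 had an SD of 2.00 in inflamed tumours, 0.30 in excluded tumours and 0.80 in desert tumours (n = 8, 3 and 5). It ranged over 2.75 to 7.93 with a median of 5.29 in inflamed tumours, against 7.23, 7.67 and 7.81 in excluded tumours and 7.15, 7.96, 7.93, 6.35 and 6.35 in desert tumours. The inflamed pair of origin A had 2.75 and 2.79, below the limit, and inflamed replicates 10 and 8 had 4.64 and 4.99, while both tumours of letter L had 7.82 and 7.93. The neutrophil markers moved with it: the mean of 5 expressed markers lay at 3.71 to 6.93 in inflamed, 6.46 to 6.96 in excluded and 6.91 to 7.79 in desert tumours, and 1 of 5 passed the test as lower in inflamed than in desert tumours. Their part in the Cxcl5 level was not tested.

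For inflamed against excluded tumours 0 of 37 members and 0 of 750 genes passed (0%, limma). At an unadjusted p of 0.05, 8.53% of all genes and 4 members did: Ccl3 (1.56), Ccl4 (1.39), Cxcl13 (1.30) and Cxcl5 (-2.20), with adjusted p-values of 0.526, 0.526, 0.583 and 0.574 (limma). The median difference of the members was 0.37 and that of all genes 0.00. Above 0 were 27 members (73%) and 50.4% of all genes. Such shares, here and in the other comparisons, include members that are not expressed. The limits lay at 1.91 to 3.71 in inflamed and 1.67 to 2.40 in excluded libraries. Ccl1 and Ccl19, below the limit in every deep library, averaged 2.38 and 2.08 in inflamed against 1.05 and 0.72 in excluded tumours. The part of the background in these shares was not tested. For excluded against desert tumours 0 of 37 members and 0 of 750 genes passed (0%, limma), and at an unadjusted p of 0.05 Ccl3 alone did, beside 6.13% of all genes. Here 23 members (62.2%) and 58.3% of all genes had a difference above 0. The 3 comparisons share tumours with each other.

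Genes around the chemokines were tested in the same fits. Of 12 measured genes of receptor signalling and adhesion (such as Pik3cg, Itgal and Vcam1), of 16 measured inducers of chemokines (such as Tnf, Il1b and Nfkb1) and of 2 further genes (the platelet chemokine Pf4 and the chemerin receptor Cmklr1), 0 passed in any of the 3 comparisons (limma). All 11 measured T cell markers had a difference above 0 for inflamed minus desert tumours, with a median of 1.01, and 0 of them passed; 4 of the 11 were expressed. The mean of these 4 lay at 2.50 to 4.69 in inflamed, 3.18 to 3.56 in excluded and 1.39 to 3.45 in desert tumours. Ccl5 correlated with that mean at r = 0.68 over 14 codes, as a description, and their part in the Ccl5 level was not tested.

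**Figure D3:**
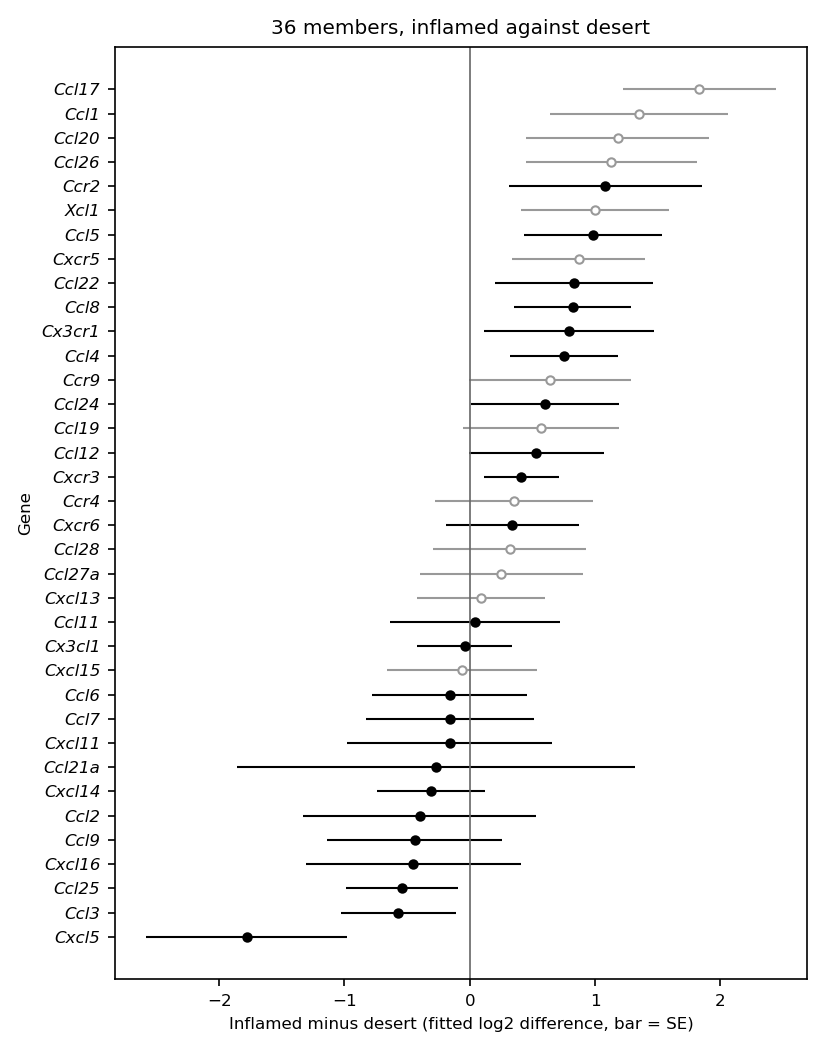
Fitted log2 difference of inflamed (n = 8) minus desert (n = 5) tumours for 36 members (points; bars are 1 SE), with filled points for expressed members and open points for the rest. The differences run from -1.78 for Cxcl5 to 1.83 for Ccl17, and none passed the test over 750 genes.

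Between origin letters, 0 of 37 members differed over all 6 letters together, where 3 of 750 genes did (0.4%, limma F test). Letter A stood below the other letters in 5 members (13.5%), where 22.4% of all genes passed in either direction and 13.7% of all genes as lower. They were Cxcl16, a membrane-bound ligand of Cxcr6 (-2.79, SE 0.73, adjusted p 0.0204, limma), Ccl9, a Ccr1 ligand known from mouse (-2.20, SE 0.64, adjusted p 0.0288, limma), Cxcr6, a receptor of tissue T cells (-1.50, SE 0.49, adjusted p 0.0419, limma), Cx3cr1 (-1.81, SE 0.60, adjusted p 0.0451, limma) and Cxcl5 (-2.48, SE 0.83, adjusted p 0.0467, limma). Read against the background, 5 lower members are about the share of all genes.

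The calls of letter A were lost without the code of the inflamed pair, although not all differences were. Cxcl16 was at 4.69 and 4.54 in that pair (replicates 3 and 4) and at 8.88 in excluded replicate 1, the remaining deep tumour of letter A, against 7.62 to 10.45 in the other letters. Ccl9 was at 7.10 and 7.12 in the pair and 8.04 in excluded replicate 1, against 7.70 to 11.15 in the other letters. Cxcl5 was at 2.75 and 2.79 in the pair and 7.23 in excluded replicate 1. Cxcr6 was at 1.92 and 2.13 in the pair and 2.95 in excluded replicate 1, against 2.28 to 4.99 in the other letters. The limits of the pair were 3.69 and 3.37, so its Cxcl5 and Cxcr6 values were below detection. Cx3cr1 was at 7.09 and 7.41 in the pair and 7.20 in excluded replicate 1, against 7.12 to 10.62 in the other letters. Excluded replicate 1 thus sat with the other letters for Cxcl16 and Cxcl5 and with the pair for Cx3cr1. With the libraries of a code number averaged, and likewise without the pair, 0 members passed; without the pair the letter A difference was 0.06 for Cxcl16 and 0.49 for Cxcl5, but -1.84 for Cx3cr1, -1.58 for Ccl9 and -0.88 for Cxcr6. Without either inflamed replicate 3 or 4 alone, 0 members passed as well. Without excluded replicate 1, 8 members passed, where 39.7% of all genes did.

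Macrophage markers moved with some of these members. Over 14 codes, the mean of the expressed markers correlated at r = 0.88 with Cx3cr1, 0.87 with Ccl9 and 0.80 with Cxcl16. With Cxcr6 r was 0.55, and with Cxcl5 it was 0.14. The mean of 7 expressed markers was 5.48 and 5.55 in the inflamed pair and 7.07 in excluded replicate 1, against 6.78 to 9.33 in the other letters, and 5 of 8 measured markers passed as lower in letter A, with a median difference of -2.11 (limma). In the same fit, 5 of 12 genes of receptor signalling and adhesion and 2 of 16 inducers passed as lower, where 13.7% of all genes did. As higher, 3 of 3 epithelial markers passed, where 8.67% of all genes did, and 0 of these 3 were called expressed. With the libraries of a code number averaged, 6 of 750 genes passed for letter A in either direction (limma). Of the macrophage markers, Marco was above its limit in no deep library. Their part in the result was not tested.

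**Figure D4:**
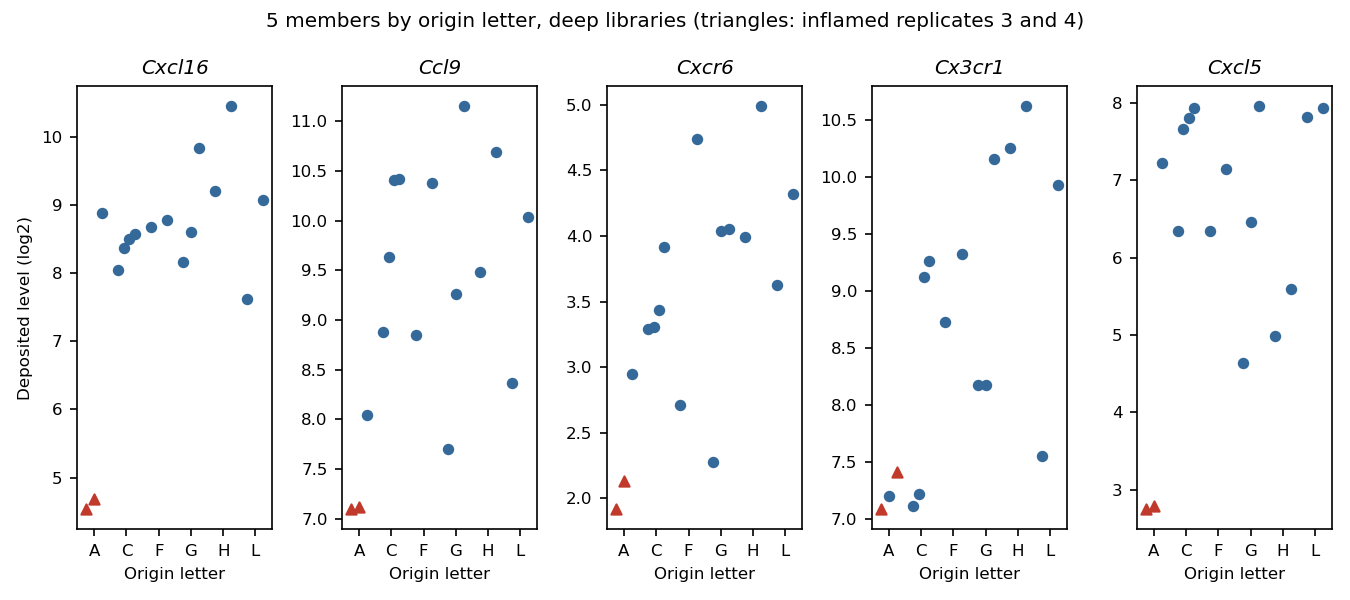
Deposited log2 level of the 5 members lower in letter A (Cxcl16, Ccl9, Cxcr6, Cx3cr1 and Cxcl5) by origin letter; points are deep libraries and triangles are inflamed replicates 3 and 4, of the same code number. For Cxcl16 the triangles are at 4.69 and 4.54, and the remaining letter A library is at 8.88. For Cxcr6 and Cxcl5 the triangles are below the detection limits of their libraries.

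Letter H, with 2 deep tumours, both inflamed, had high levels of Ccr2 and Cx3cr1 but passed no test. Ccr2 was at 10.14 and 10.57 in letter H, against 5.71 to 10.10 in the other letters. Both values were above those of every other letter. Cx3cr1 was at 10.62 and 10.25 in letter H, against 7.09 to 10.16 in the others. Macrophage and monocyte markers moved with them: 8 of 8 had a difference above 0 for letter H, with a median of 1.37, and the mean of the 7 expressed ones was 9.33 and 8.76 in letter H, against 5.48 to 8.99 in the other letters. Their part was not tested. Of the 37 members 0 passed for letter H (0 of 750 genes, 0%, limma); the smallest adjusted p was 0.222, which Ccl22 (1.97), Ccr2 (2.66) and Cx3cr1 (2.03) had. At an unadjusted p of 0.05, 13.5% of the members and 14.3% of all genes differed. For letters C, F, G and L 0 members passed either, with 1, 0, 0 and 0 of 750 genes (0.133% for C and 0% for the others, limma).

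By single library, inflamed replicate 8 of letter H had the highest level of 8 of the 24 expressed members (33.3%, against 19.9% of all expressed genes) and inflamed replicate 1 of the same letter of 5 (20.8%, against 7.39%). The inflamed pair of letter A had the lowest level of 7 and 3 members (29.2% and 12.5%, against 22.4% and 19.4% of all expressed genes) and the highest of none. Desert replicate 1 had the highest level of 2 members and the lowest of 4.

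Samples whose code has 0 after the letter were set against samples with F2. As lower in 0 than in F2 codes, 3 of 37 members passed (8.11%), where 4.13% of all genes passed in either direction and 3.47% as lower. They were Ccl1, at 0.16 ± 1.21 (SD, n = 5) in 0 codes and 2.41 ± 0.89 (SD, n = 11) in F2 codes with an adjusted p of 0.0313, Ccl19 with a difference of -1.83 and an adjusted p of 0.0338, and Cxcr5 with a difference of -1.46 and an adjusted p of 0.05 (all limma). All 3 were below the detection limit in every deep library. The limits lay at 1.71 to 2.40 in 0 codes and at 1.67 to 4.32 in F2 codes. Ccl19 and Cxcr5 are among the dimmest genes that set these limits, and Ccl1 is not. For Ccl19 and Cxcr5 the limit is therefore no independent measure, since their own values enter it. The part of the background in the 3 differences was not tested. With the test kept to expressed genes, 0 members passed. Ccl7 had a difference of 1.37 in the other direction and did not pass (adjusted p 0.192, limma), at 7.90 ± 1.46 in 0 codes (SD, n = 5) and 6.53 ± 0.84 in F2 codes (SD, n = 11).

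Ligands and their receptors were compared across the 14 codes with a deep library, with samples of 1 code averaged. Of 14 known pairs, 3 passed at an adjusted p of 0.05 (permutation test, two-sided, Benjamini-Hochberg over the 14 pairs), of which 2 are described. Ccl12 and Ccr2 correlated at r = 0.82 (permutation p 0.00044, adjusted 0.00616) and rho = 0.75 (permutation p 0.00315, adjusted 0.0441). Without the 2 codes farthest from the median of Ccl12, r was 0.85 over 12. Both genes also correlated with the macrophage marker mean, at r = 0.73 for Ccl12 and 0.75 for Ccr2, and the part of that mean was not tested.

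Cxcl16 and Cxcr6 correlated at r = 0.71 (permutation p 0.00189, adjusted 0.0132) and rho = 0.67 (permutation p 0.0101, adjusted 0.0472), and without the 2 codes farthest from the median of Cxcl16 at r = 0.40. This relation rests in part on those codes. Without the inflamed pair of letter A r was 0.59, after recentring 0.52, and with values raised to the detection limit 0.37, and the relation did not pass in any of these (permutation, adjusted p 0.146, 0.216 and 0.307). Cx3cl1 and Cx3cr1 had r = 0.59 (permutation p 0.0268, adjusted 0.0939) and rho = 0.57 (permutation p 0.036, adjusted 0.126) and did not pass. Of the others, 8 pairs had r of 0.01 to 0.46, among them Ccl2 and Ccr2 at 0.11 and Cxcl11 and Cxcr3 at 0.01. These include Ccl17 and Ccl22 with Ccr4, Ccl25 with Ccr9, and Cxcl13 with Cxcr5. The receptors Ccr4, Ccr9 and Cxcr5 were above the limit in no deep library, so r cannot show whether those pairs varied together. No letter holds 6 codes, so no value within a letter could be given.

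**Figure D5:**
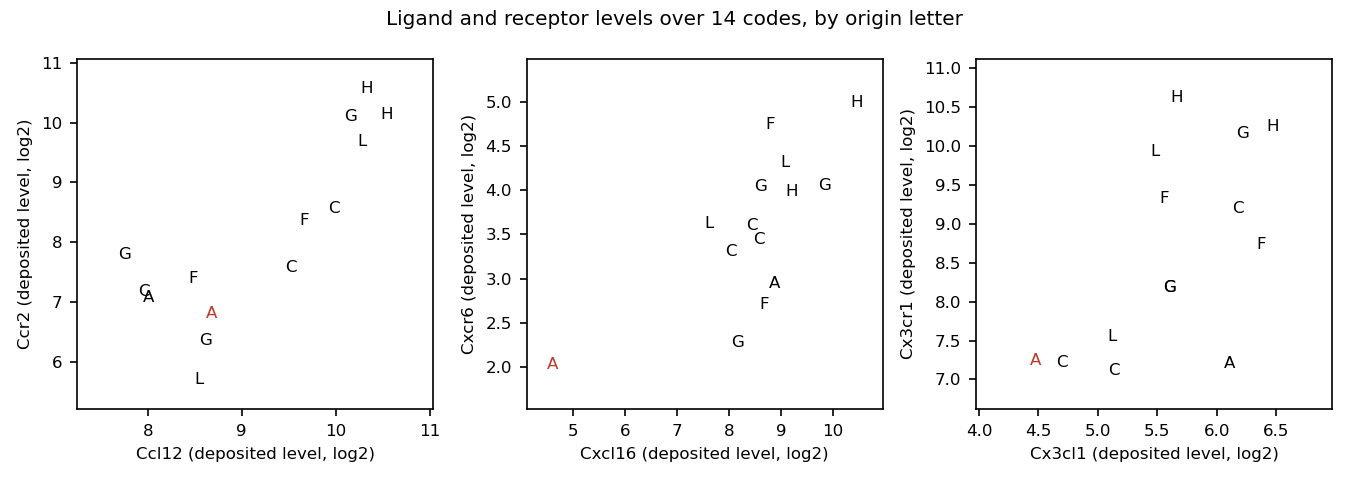
Receptor against ligand level (both deposited log2) for Ccl12 and Ccr2, Cxcl16 and Cxcr6, and Cx3cl1 and Cx3cr1; each mark is 1 of 14 codes, drawn as its origin letter, with the code of inflamed replicates 3 and 4 in red and 2 codes of letter G nearly on top of each other for Cx3cl1. The 3 correlations are r = 0.82, 0.71 and 0.59, and the last did not pass.

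The genes most like the 4 leading members were found over the same 14 codes among all 750 genes, as a description, 5 for each. Ccr2 was most like H2-DMb2 and Trem2 (both r = 0.95), Il21r and Fcgr1 (both 0.93) and H2-DMa (0.92); Trem2 and Fcgr1 are receptors of macrophages, and H2-DMa and H2-DMb2 take part in antigen presentation. Ccl5 was most like Cd69 (r = 0.90), a marker of activated lymphocytes, Cd40 (0.86), Tnfsf8 (0.82), Psmb10 (0.80) and Klrk1 (0.80). Ccl3 was most like Cxcl3, Cxcl2 and Mmp12 (each r = 0.72), Tcf3 (0.64) and Cxcl13 (0.62), of which Cxcl2 and Cxcl3 are neutrophil attractants. Ccl21a was most like Sox11 (r = 0.76), Reln (0.73), Axin1 (0.71), Nf1 (0.66) and Met (0.66). Of the genes listed for these members, Cd69, Klrk1, Tcf3, Cxcl13, Sox11 and Reln are not called expressed. They were above the limit in 5, 7, 1, 6, 4 and 7 of 16 deep libraries, so most of their values lay below it.

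The CXC genes outside the rule gave the scale of the rest of the family in the deep libraries. Cxcl1, Cxcl2 and Cxcl3, which attract neutrophils, ranged over 3.60 to 8.94, 1.08 to 5.62 and 1.33 to 6.58. Their highest levels were in desert replicates 6, 7 and 5. The interferon-induced Cxcl9 and Cxcl10 ranged over 3.10 to 8.54 and 5.23 to 7.93, both lowest in desert replicate 2. Cxcl12 ranged over 4.12 to 9.89, and the receptors Cxcr2 and Cxcr4 over 1.89 to 6.14 and 5.34 to 8.03.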

How the data were processed

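Barcoded probe counts of total RNA from 24 tumours were deposited by the authors as log2 values, with 34 of 784 rows empty (14 control probes and 20 genes). Each deposited log2 value is a whole count multiplied by a factor of its sample: with that factor every value (100%) came within 0.001 of a whole count, at most 3.32e-04 away. How the factors were set, and any background subtraction, is not given in the sources used here. Recovered totals and detection limits were computed from these counts. Differences were fitted on the log2 values of the deep libraries with limma 3.58.1 in R 4.3.3 (lmFit, eBayes, two-sided), with Benjamini-Hochberg adjustment over 750 genes and a threshold of 0.05. Correlations used permutation tests (scipy 1.17.1). Named genes are the members (expressed ones with values, the others by counts and range), the CXC genes outside the rule as ranges, genes of the pathway lists, and for Ccl5, Ccl3, Ccr2 and Ccl21a the 5 genes of highest Pearson r; marker genes were named beside the results they touch. The members, lists and the restriction to deep libraries were chosen with earlier results of these data known. Desert replicates 3 and 4, both shallow, had counts that differed by less than their sampling noise (a chi-square of 449.9 with 454 degrees of freedom). They were counted as 1 sample in the fits and peak counts with all libraries. For the ligand and receptor pairs with all libraries, they were averaged with the deep desert replicate 6, of the same code. That replicate differed from them beyond sampling noise (chi-square per degree of freedom 16.5 and 17.18). Over all genes, inflamed replicates 3 and 4 and excluded replicates 2 and 3 also differed by more than sampling noise (chi-square per degree of freedom 2.20 and 8.12). The inflamed and excluded pairs were kept apart, except for codes averaged. Over the members alone, the inflamed pair did not differ beyond sampling noise (chi-square of 45.6 with 35 degrees of freedom, chi-square test p 0.109). The excluded pair did (6.12 per degree of freedom). The letter A calls counted the inflamed pair as 2 libraries. All 37 symbols matched the RefSeq annotation GRCm38.p6; the panel's own build is not given, so the only coordinates printed are those of the RefSeq promoter windows. Values of a few genes, which stay in the counts, are not reported here.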

Additional observations from a re-analysis of the deposited data

Results flagged for a closer look

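Dixon's test of the highest or lowest sample, at its 95% value, was applied to 72 groups of 4 to 10 deep libraries of the expressed members, and chance flags about 1 in 20 of them. It marked 2 groups. Ccl22, a Ccr4 ligand, was at 0.46 in desert replicate 1, with the nearest desert tumour at 2.55, a gap of 0.80 of the range, and below the limit of 2.03 of its library. Cxcl5 was at 6.35 in desert replicate 6, the lowest of the 4 deep libraries of letter C, with the nearest at 7.67 and a gap of 0.83 of the range.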

How the results depend on the processing

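Between the infiltrate classes 0 members passed in all 3 comparisons under each of 10 alternatives and on leaving out each of 16 libraries. For letter A, against 5 members as reported, 0 passed with all 24 libraries, 1 after recentring, 9 after quantile normalisation, 3 with values raised to the detection limit, 0 with codes averaged and 0 without the inflamed pair, and 0 to 8 on leaving out single libraries; without the pair the difference was -0.26 for Ccl27a, 0.06 for Cxcl16 and 0.49 for Cxcl5, of opposite sign to the full fit, and -1.84 for Cx3cr1, -1.58 for Ccl9 and -0.88 for Cxcr6. Recentring put the median letter A difference of all genes at 0.23 in place of -0.22. Over all letters 0 to 2 passed on leaving out single libraries (2 without excluded replicate 1). For 0 against F2 codes, against 3 members, 0 passed after quantile normalisation, 0 among expressed genes, 11 with values raised to the limit, 5 with letter as a random block, 6 with letter as a fixed term, 0 without the inflamed pair and 0 against F2 libraries of at least 250000 counts, and 0 to 4 on leaving out single libraries. Peaks numbered 3 with a gap of 1. Of the ligand and receptor pairs, against 3 as reported, 1 passed after recentring, 6 with all libraries, 1 without the inflamed pair and 3 with values raised to the limit; Ccl12 and Ccr2 passed in all 4 (r 0.76 to 0.82), while Cxcl16 and Cxcr6 passed in none of them, with r of 0.52 after recentring, 0.59 without the pair, 0.37 with values raised to the limit and -0.02 with all libraries. The Ccl21a difference of inflamed minus desert tumours, -0.27 as reported, was 0.04 with all libraries, 0.47 without inflamed replicate 1, 1.01 without desert replicate 1 and 0.18 without desert replicate 6, and leaving out single libraries moved it over -1.30 to 1.01. No paired analysis was possible because the labels give no replicate numbers shared between groups; letters that hold both 0 and F2 codes entered as the blocks above. Causes of these changes were not tested. Shallow libraries cannot show the dimmer members: of 37, they had 1 to 20 above the limit, against 17 to 26 in deep ones.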
